A study of Mus musculus with 22 samples.

Results

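The noncoding genes of the triplicated segment of mouse chromosome 16 (Mmu16) are the annotated genes that carry no protein-coding biotype and start at or beyond Mir155, at chr16:84714140 in GRCm38. The segment as used here is this stretch, all of which lies in the extra copy carried by the Ts66Yah mouse, and genes of the copy before Mir155 were not analysed here. GENCODE vM21 placed 291 genes in the stretch, which runs to chr16:98082450, and 156 of them were not protein coding. The count table held 154 of the 156, of which 41 had no count in any library, and the remaining 113 with at least 1 count are described here, out of 55385 rows in the table and 38162 rows with a count. Among the 113 were 27 lincRNAs, 25 antisense RNAs, 29 processed pseudogenes, 8 processed transcripts, 8 TEC entries (transcripts still to be experimentally checked), 3 microRNA genes, 2 snoRNA and 2 snRNA genes, and 9 genes of rarer kinds.

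The Ts66Yah line models Down syndrome with a small freely segregating chromosome that carries Mir155 and the rest of Mmu16 up to the telomere, so that genes of the segment are present in 3 copies rather than 2. The part of mouse chromosome 17 that its parent line Ts65Dn also carries had been removed with CRISPR/Cas9, and the line descends from 1 founder crossed to C57BL/6NCrl and was then kept on a mixed background of C57BL/6J and a sighted C3H line (B6C3B). RNA came from 2 brain regions, entorhinal cortex (EC) and hippocampus (HIP), of 5 wild-type (wt) and 6 Ts66Yah animals, all male and 5 to 6 months old, which gave 22 libraries from 11 animals with 1 library per region and animal. The wt animals are described as littermates of the Ts66Yah animals, without saying which shared a litter. The question that the groups address is how an additional copy of the segment changes RNA levels in each region.

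The libraries held 25900479 to 50105778 counts over all genes. A gene is called here when its adjusted p is under 0.05 in the fit over all genes. The protein-coding reference genes of the segment were called higher in Ts66Yah for 6 of 6 genes in HIP libraries and 5 of 6 in EC libraries, and their log2 fold changes had a median of 0.58 in either region, which equals the 0.58 of a copy ratio of 1.5. Hippocampal marker genes summed to between 215 and 290 counts per 1000000 (CPM) in HIP libraries and between 12.7 and 16.8 CPM in EC libraries, and cortical markers to between 125 and 182 CPM against 404 to 699 CPM. Choroid plexus markers ranged from 114 to 3320 CPM over the HIP libraries and from 10.5 to 44.3 CPM over the EC libraries.

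Long noncoding RNAs are transcripts without a recognised open reading frame. Antisense RNAs are made from the strand opposite to another gene, divergent RNAs start close to the start of a coding gene and run away from it, and lincRNAs lie between genes. Processed pseudogenes are copies of spliced messenger RNAs that were inserted back into the genome, and short reads from them can be hard to separate from reads of the parent gene. Most such genes are expressed at far lower levels than messenger RNAs, so that their fold changes carry wide errors at a depth that is ample for coding genes.

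The 113 genes were low. Together they held 16211 counts over the 22 libraries, or 0.243% of the counts of the segment, and the median gene reached 0.0313 CPM per kilobase of exon, against 3.75 CPM per kilobase for the 100 protein-coding genes of the segment with a count. Only 4 of the 113 had 1000 or more counts, 20 had from 100 to below 1000, 45 from 10 to below 100, and 44 fewer than 10. Counts were present in every library for 18 genes and in a single library for 13. The 5 highest genes held 57.8% of the counts. These were Gm41505, antisense to the potassium channel gene Kcnj6, at a mean of 6.23 CPM, the lincRNA 2810407A14Rik at 1.84 CPM, the antisense RNAs Gm10785 and Gm10791 at 1.29 CPM each, and the divergent transcript B130034C11Rik at 1.25 CPM. Per kilobase the order was led by Gm41505 at 5.19 CPM, followed by the processed pseudogene Gm46546 at 1.38 CPM, a short gene of 249 bases. Antisense RNAs had a higher median level, 0.125 CPM per kilobase, than lincRNAs at 0.0153 and processed pseudogenes at 0.0279 CPM per kilobase.

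Relative to protein-coding genes, 59 of the 113 overlapped none, 20 shared exon bases with a coding gene on the opposite strand, 3 shared exon bases on the same strand, 17 lay within or across the span of a coding gene on the opposite strand without touching an exon, and 14 did so on the same strand. Of the 25 antisense RNAs, 14 shared exon bases with the coding gene and 11 did not. The library protocol keeps strand, but the strand setting used for counting is not given in the sources used here. Where exons of a pair overlap and counting ignores strand, reads of the partners cannot be told apart. Reads from introns of a coding gene can enter the 14 genes within its span on the same strand, whatever the setting. They can enter the 17 in a span on the opposite strand too where counting ignores strand. How far either occurs was not tested.

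Summed over all 113 genes, noncoding RNA of the segment was higher in every Ts66Yah library than in every wt library of the same region. In the HIP the sum was 19.9 ± 1.82 CPM in wt (SD, n = 5) and 30.1 ± 2.32 CPM in Ts66Yah (SD, n = 6), a ratio of 1.51. In the EC it was 12.3 ± 0.978 CPM against 19.0 ± 2.41 CPM, a ratio of 1.54. The lowest Ts66Yah library stood at 26.1 CPM in the HIP and 16.6 CPM in the EC, above the highest wt library at 22.8 and 13.7 CPM. The summed coding genes of the segment gave ratios of 1.51 and 1.5. The 90 genes too low to be tested singly in any comparison were close to the same ratio, 1.5 in the HIP, without overlap between genotypes, and 1.52 in the EC, with overlap. These are levels in bulk tissue, in which fewer cells of a type and less RNA per cell cannot be told apart.

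The ratio differed among classes of gene. To give the classes enough reads, the HIP and EC counts of each animal were added (the animal sum), which left 5 wt and 6 Ts66Yah values. Antisense RNAs went from a mean of 8.31 to 13.7 CPM, a ratio of 1.64, which was 1.55 without Gm41505. LincRNAs went from 2.01 to 3.83 CPM, a ratio of 1.90. Without 2810407A14Rik the ratio was 1.72, with 1.96 in the HIP alone and 1.45 in the EC alone. Both classes separated the genotypes without overlap. Processed transcripts, at 2.46 and 2.96 CPM, had a ratio of 1.2, and TEC entries, at 1.19 and 1.5 CPM, a ratio of 1.26. B130034C11Rik had 968 counts over all libraries, against a median of 62.5 for processed transcripts. Gm49727 had 717, against a median of 34 for TEC entries. Ratios without these genes are not given. Processed pseudogenes were not higher in Ts66Yah, with 1.17 and 1.07 CPM and a ratio of 0.913. Without Gm46546 and Gm6278, the pseudogenes with the most counts, the other processed pseudogenes stood at 0.403 and 0.566 CPM, a ratio of 1.40, with 1.16 in the HIP alone and 1.74 in the EC alone. Ts66Yah animal 6 was the highest at 0.947 CPM, and without it, an alternative chosen after seeing the data, the ratio of the sum was 1.22 and that of the EC 1.28. The EC library of this animal held 28 counts of Gm2805, named with its values known, which had 0 to 4 counts in each wt EC library. No test was made between the classes.

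**Figure D1:**
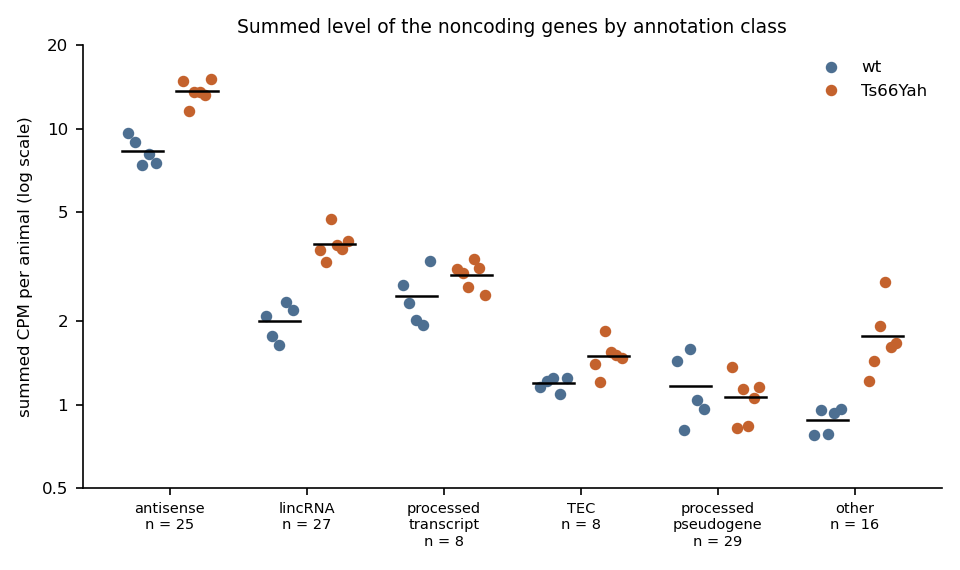
Summed level of the noncoding genes in each animal (CPM on a log scale, y axis) by annotation class (x axis, with the number of genes), from counts of both regions added per animal. Points are 5 wt and 6 Ts66Yah animals and the line is the group mean. The genotypes separate for antisense RNAs, with means of 8.31 and 13.7 CPM, and for lincRNAs, with 2.01 and 3.83 CPM, and overlap for processed pseudogenes, with 1.17 and 1.07 CPM.

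Tested singly in the fit over all genes, few of the 113 had enough reads. In the HIP 16 passed the filter on low counts and 3 were called higher in Ts66Yah, Gm49227, 2810407A14Rik and Gm41505, where 0.439% of all 18452 genes tested were called higher. In the EC 13 passed and 1 was called higher, 2810407A14Rik, beside 0.272% of 17658 genes. In the animal sum 23 passed and the same 3 as in the HIP were called, beside 0.455% of 20233 genes. No gene of the 113 was called lower by edgeR or by DESeq2 in any of these 3 comparisons, and at an unadjusted p under 0.05 by edgeR none was lower in the HIP or the EC and 1, Gm46546, in the animal sum. Every Ts66Yah value lay over every wt value for 4 of 16 genes in the HIP, 1 of 13 in the EC and 5 of 23 in the animal sum, where all genes gave 1.04%, 0.555% and 0.949%. These were 2810407A14Rik, Gm49227, Gm36001 and Gm15964 in the HIP, 2810407A14Rik in the EC, and 2810407A14Rik, Gm49227, Gm41505, Gm16310 and AC144797.2 in the animal sum, of which Gm16310 and AC144797.2 are named with their values known. Median log2 fold changes were 0.55 for the HIP, 0.43 for the EC and 0.58 in the animal sum, while coding genes of the segment had medians of 0.59, 0.57 and 0.59.

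The intervals show how much the depth allowed. In the HIP the 95% interval of the log2 fold change held 0.58, a copy ratio of 1.5, for 12 of 16 genes, and it held no change for 7. For 5 genes it held both, so that neither could be told from the other. Its median width was 0.96, against 0.32 for coding genes of the segment. Of those coding genes 55 of 85 were called in the HIP, but of the 24 coding genes no higher than the highest noncoding gene tested only 3 were called. In the EC the matching counts were 44 of 80 and 0 of 15, with 8 of the 15 at an unadjusted p under 0.05, and in the animal sum 62 of 86 and 6 of 22.

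**Figure D2:**
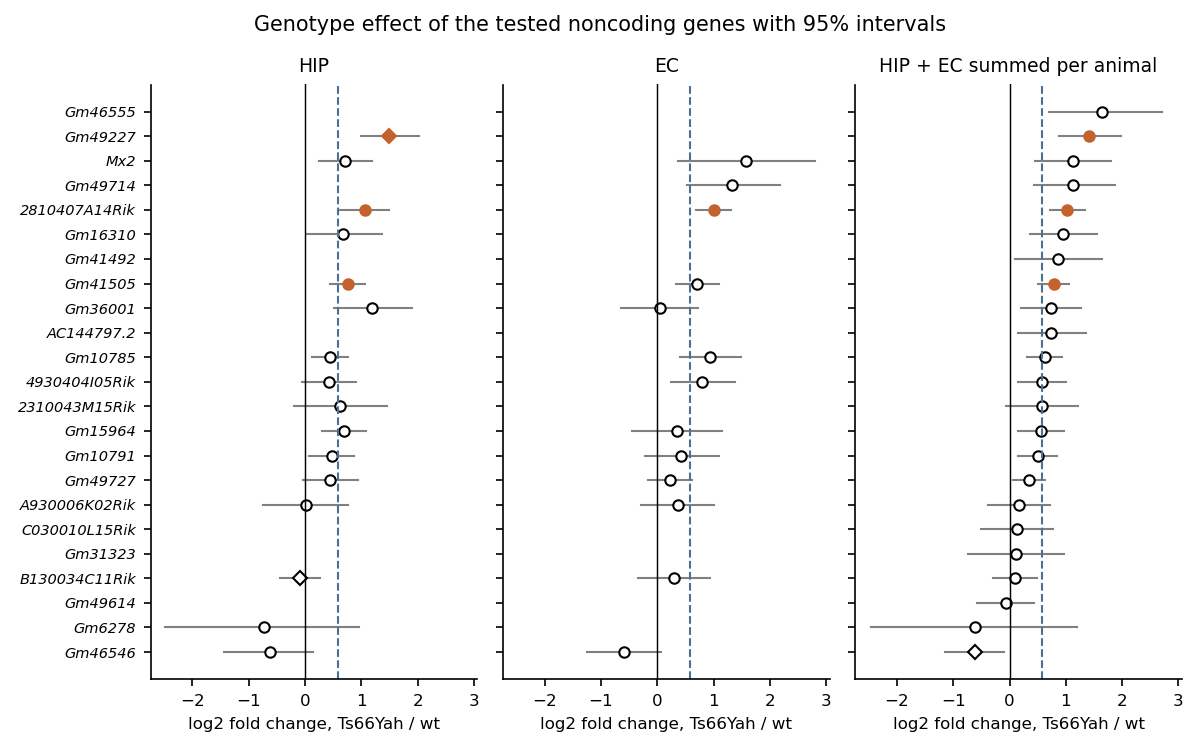
Log2 fold change of Ts66Yah over wt (x axis) with its 95% interval for each noncoding gene tested in the HIP, the EC and the animal sum. The solid line is no change, the dashed line a copy ratio of 1.5, filled symbols mark genes called between genotypes and diamonds genes that departed from 1.5-fold. Filled symbols stand at 1.49, 1.06 and 0.76 in the HIP, at 1.0 in the EC and at 1.42, 1.03 and 0.79 in the animal sum.

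A second test asked whether a gene departed from 1.5-fold, with adjustment over the tested genes of the segment. In the HIP 2 of the 16 did, B130034C11Rik from below and Gm49227 from above, where 5.94% of the 101 segment genes tested departed. In the EC none of the 13 did by edgeR, 2 had an unadjusted p under 0.05, and 1.08% of 93 segment genes departed. In the animal sum 1 of 23 did, the pseudogene Gm46546 from below, beside 3.67% of 109 segment genes. DESeq2 was not run for this test.

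**Figure D3:**
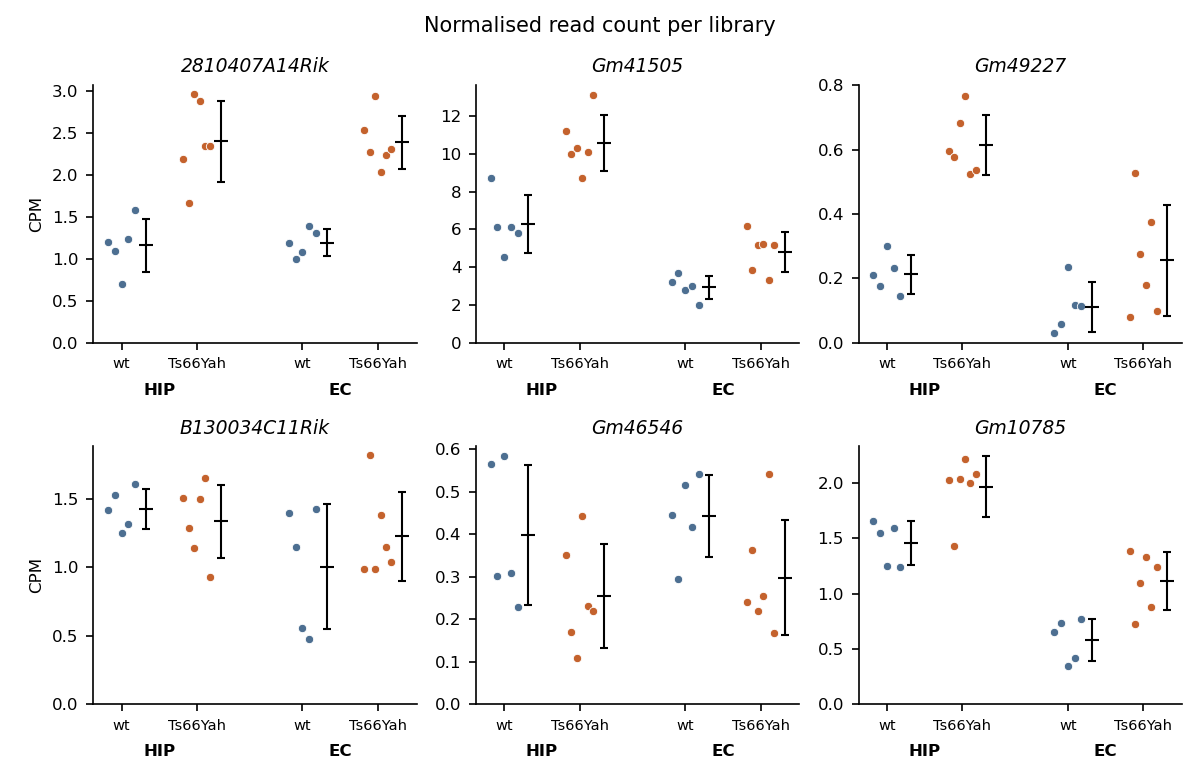
Normalised read count (CPM, y axis) of 6 noncoding genes in every library, by genotype and region (x axis). Each point is 1 library and the bar gives the mean and SD of 5 wt or 6 Ts66Yah libraries. The genotypes are separate in both regions for 2810407A14Rik and in the HIP for Gm49227, and they overlap in both regions for B130034C11Rik and Gm46546.

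2810407A14Rik (ENSMUSG00000055972) is a lincRNA of unknown function on the plus strand at chr16:87784075-87839293, with 3771 exonic bases. It overlaps no coding gene, and the nearest coding start is that of Bach1, a repressor of the haem oxygenase gene. No stretch of 50 or more of its bases had a copy elsewhere at 98% identity or more. The RefSeq transcript of this name starts 44652 bases from the start annotated in GENCODE. The 300 bases around that RefSeq start, at chr16:87828477-87828776 in GRCm38.p6, plus strand, are shown because this was the gene called in all 3 comparisons, with the motifs TATAAA and CCAAT on either strand in capitals.
2810407A14Rik: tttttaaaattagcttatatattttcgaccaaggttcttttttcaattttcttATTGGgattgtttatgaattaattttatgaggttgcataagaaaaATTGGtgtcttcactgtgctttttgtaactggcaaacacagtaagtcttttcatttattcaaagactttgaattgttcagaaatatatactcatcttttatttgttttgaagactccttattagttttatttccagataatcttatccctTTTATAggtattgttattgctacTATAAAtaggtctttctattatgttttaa

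This window was 25.7% GC, against a median of 52.7% over all RefSeq promoter windows of this length, and held 1 CG pair. It had 2 matches to TATAAA, a motif found in 13.6% of the 32851 windows, and 2 to CCAAT, found in 37.4%. The level of 2810407A14Rik in the wt HIP was 1.2, 1.1, 0.705, 1.24 and 1.58 CPM, and in the Ts66Yah HIP from 1.67 to 2.97 CPM with a median of 2.35. All 6 Ts66Yah libraries stood above all 5 wt libraries. In the wt EC the level was 1.19, 0.998, 1.08, 1.40 and 1.31 CPM, and in the Ts66Yah EC from 2.04 to 2.95 CPM with a median of 2.29, again without overlap. On the log2 scale the fold change was 1.06 in the HIP (95% interval 0.63 to 1.49, adjusted p = 0.0304), 1.0 in the EC (0.69 to 1.31, adjusted p = 0.00677) and 1.03 in the animal sum (0.72 to 1.34, adjusted p = 0.00298). All 3 intervals lay above 0.58, but the departure from 1.5-fold missed the threshold after adjustment over the segment, with adjusted p = 0.224, 0.232 and 0.0951. Bach1 rose by 0.44 in the HIP (adjusted p = 0.00569), 0.59 in the EC (adjusted p = 0.00273) and 0.51 in the animal sum on the same scale.

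The EC call and that of the animal sum stood without any 1 library or animal, with adjusted p from 0.00904 to 0.0293 and from 0.00277 to 0.0133. The HIP call stood in 3 of 11 such fits, with adjusted p from 0.0188 to 0.0784, and was lost without wt replicate 1, 2, 3 or 4 or Ts66Yah replicate 3, 4, 5 or 6.

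Gm49227 (ENSMUSG00000115469, chr16:85080111-85083392, plus strand) and Gm10791 (ENSMUSG00000115518, chr16:84972214-84979451, plus strand) are both antisense to App, which encodes the amyloid precursor protein. Of the 998 exonic bases of Gm49227, 113 lie on App exons, all of them coding sequence, while Gm10791 lies in the span of App and shares no exon base with it. Gm49227 was at 0.212, 0.176, 0.302, 0.232 and 0.144 CPM in the wt HIP and from 0.523 to 0.765 CPM, median 0.586, in the Ts66Yah HIP. The Ts66Yah libraries, with 17 to 31 counts each, were all above the wt libraries. Its log2 fold change was 1.49 (95% interval 1.0 to 2.03, adjusted p = 0.00712), and it exceeded 1.5-fold (adjusted p = 0.0309). The genotype call held without any 1 library, with adjusted p from 0.00673 to 0.0256. The departure from 1.5-fold held in 4 of 11 such fits (adjusted p from 0.0208 to 0.0960) and was lost without wt replicate 1, 2, 4 or 5 or Ts66Yah replicate 1, 3 or 4.

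In the EC Gm49227 was too low for a test, with 21 counts over the 5 wt libraries and 50 over the 6 Ts66Yah libraries. Its level there was 0.0298, 0.0587, 0.234, 0.119 and 0.114 CPM in wt and 0.0802 to 0.528 CPM, median 0.227, in Ts66Yah, and the genotypes overlapped. In the animal sum the log2 fold change was 1.42 (95% interval 0.88 to 1.98, adjusted p = 0.0198), a call that was lost without wt animal 1, 2 or 5 or Ts66Yah animal 2, 3 or 4 (adjusted p from 0.00408 to 0.0668). App itself rose by 0.61 in the HIP, from 2090 ± 94.6 to 3190 ± 108 CPM (SD, n = 5 and 6), and by 0.57 in the EC on the log2 scale, and its departure from 1.5-fold had adjusted p = 0.811 and 0.940. The difference between the fold changes of Gm49227 and App was not tested.

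Gm10791, at a mean of 0.779 CPM per kilobase against 0.308 for Gm49227, was called in no genotype comparison by edgeR or DESeq2. It stood at 1.59, 1.38, 1.89, 1.94 and 1.15 CPM in the wt HIP and from 1.54 to 2.75 CPM, median 2.26, in the Ts66Yah HIP, with overlap. Its log2 fold change was 0.48 (95% interval 0.08 to 0.87, adjusted p = 0.325) in the HIP and 0.43 (interval -0.21 to 1.09, adjusted p = 0.918) in the EC, and both intervals held a copy ratio of 1.5.

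Gm41505 (ENSMUSG00000116641, chr16:94721894-94753438, plus strand) held 30.3% of all counts of the 113 genes. It is antisense to Kcnj6, which encodes GIRK2, a subunit of the potassium channels that G protein-coupled receptors open in neurons. Of its 1200 exonic bases, 380 lie on Kcnj6 exons, 2 of them coding and 378 untranslated. The wt HIP level was 8.74, 6.14, 4.53, 6.12 and 5.83 CPM, and the Ts66Yah HIP level 8.71 to 13.1 CPM with a median of 10.2. Only wt replicate 1, at 8.74 CPM, reached the lowest Ts66Yah library. In the EC the wt values were 3.21, 3.67, 2.81, 3.01 and 2.00 CPM and the Ts66Yah values 3.33 to 6.20 CPM, median 5.15, with overlap at wt replicate 2. The log2 fold change was 0.76 in the HIP (95% interval 0.45 to 1.07, adjusted p = 0.0304), 0.71 in the EC (0.33 to 1.1, adjusted p = 0.253) and 0.79 in the animal sum (0.51 to 1.06, adjusted p = 0.0116), and each interval held a copy ratio of 1.5.

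Kcnj6 rose by 0.76 in the HIP, 0.64 in the EC and 0.75 in the animal sum on the log2 scale (adjusted p = 0.000543, 0.0227 and 0.000165). The difference between the fold changes of this pair was not tested. How far shared reads enter the value of Gm41505 was not tested either. The call of Gm41505 in the animal sum held without any 1 animal (adjusted p from 0.00563 to 0.0393). That in the HIP held in 2 of 11 fits that left out 1 library, wt replicate 1 or Ts66Yah replicate 4, with adjusted p from 0.00371 to 0.0919 over all 11.

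B130034C11Rik (ENSMUSG00000093606, chr16:87495999-87504033, plus strand) is a processed transcript that starts 126 bases from Cct8, which encodes a subunit of the chaperonin that folds actin and tubulin, and runs away from it. A further 3 of the 113 genes had a coding gene within 1000 bases on the opposite strand with the starts facing away from each other. These were Gm10785 with Donson, a replication fork protein, at 128 bases, 4931406G06Rik with Paxbp1 at 113 bases, and AC144797.2 with Brwd1 at 150 bases. 4931406G06Rik and AC144797.2 stand outside the rule for named genes and were picked with their values known. The RefSeq windows of B130034C11Rik, chr16:87495823-87496122, and Gm10785, chr16:91688648-91688947, both of the plus strand of GRCm38.p6, are shown because each holds the start of the coding partner as well, with the motif GGGCGG on either strand in capitals.
B130034C11Rik: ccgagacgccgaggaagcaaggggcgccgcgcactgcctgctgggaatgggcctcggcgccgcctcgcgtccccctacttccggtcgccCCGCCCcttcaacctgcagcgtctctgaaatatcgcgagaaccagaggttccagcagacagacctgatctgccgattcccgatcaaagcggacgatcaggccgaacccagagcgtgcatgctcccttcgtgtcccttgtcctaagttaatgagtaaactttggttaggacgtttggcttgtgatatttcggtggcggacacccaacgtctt
Gm10785: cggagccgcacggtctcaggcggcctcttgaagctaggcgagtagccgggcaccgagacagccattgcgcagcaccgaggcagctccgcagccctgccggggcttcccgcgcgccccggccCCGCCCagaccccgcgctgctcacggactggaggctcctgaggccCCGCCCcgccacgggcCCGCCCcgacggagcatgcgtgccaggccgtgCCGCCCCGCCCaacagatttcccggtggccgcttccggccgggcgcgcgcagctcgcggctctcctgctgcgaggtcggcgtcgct

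The first window was 60.0% GC with 28 CG pairs and 1 match to GGGCGG, a motif found in 35.7% of all windows. Cct8 starts at base 51 of it and the annotated B130034C11Rik at base 177. The second window was 76.7% GC with 42 CG pairs and 5 matches to GGGCGG, and Donson starts at its base 123. Neither held TATAAA or CCAAT.

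Beside Cct8, which rose by 0.60 in the HIP (adjusted p = 1.2e-05), B130034C11Rik did not pass the test of genotype and departed from 1.5-fold from below. Its wt HIP level was 1.42, 1.53, 1.25, 1.32 and 1.61 CPM, and its Ts66Yah HIP level 0.929 to 1.65 CPM with a median of 1.40, so that the genotypes overlapped throughout. On the log2 scale the fold change was -0.09 (95% interval -0.44 to 0.26, adjusted p = 0.888), and the departure from 1.5-fold had adjusted p = 0.0285. That departure was lost without wt replicate 1, 2 or 5 or Ts66Yah replicate 3, with adjusted p from 0.0201 to 0.0873 over the 11 fits. In the EC the wt level was 1.40, 1.15, 0.561, 0.477 and 1.43 CPM and the Ts66Yah level 0.989 to 1.82 CPM, median 1.1. The log2 fold change there was 0.30 with an interval from -0.34 to 0.93 that held both no change and a copy ratio of 1.5, and the departure had adjusted p = 0.856. The sum per animal gave 0.09 (-0.30 to 0.48, departure adjusted p = 0.154). Of the bases of B130034C11Rik 2.8% had a copy elsewhere at 98% identity or more.

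Gm10785 (ENSMUSG00000085169, chr16:91688898-91715642, plus strand), which also shares 444 of its 1802 exonic bases with Cryzl1 on the opposite strand, was called in no genotype comparison by the main edgeR fits. DESeq2 called it in the animal sum (adjusted p = 0.00774). An edgeR fit of all 22 libraries, which took those of an animal as independent, called it in the EC (adjusted p = 0.0461). In the animal sum without Ts66Yah animal 2, edgeR called it as well (adjusted p = 0.0271). The wt HIP level was 1.66, 1.55, 1.25, 1.59 and 1.24 CPM and the Ts66Yah HIP level 1.43 to 2.22 CPM, median 2.04, and only Ts66Yah replicate 2, the lowest, lay within the wt range. Its log2 fold change was 0.44 in the HIP (95% interval 0.13 to 0.76, adjusted p = 0.252), 0.93 in the EC (0.40 to 1.48, adjusted p = 0.328) and 0.63 in the animal sum (0.31 to 0.94, adjusted p = 0.103). Donson rose by 0.64, 0.63 and 0.64 and Cryzl1 by 0.55, 0.62 and 0.59. In log2 terms AC144797.2 stood at 0.74 in the animal sum (adjusted p = 0.384) and Brwd1 at 0.57, and 4931406G06Rik, with 31 counts over all libraries, was not tested.

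None of the other antisense and opposite-strand genes with enough reads was called between genotypes by edgeR. DESeq2 called Gm46555, an antisense RNA in the span of Rcan1 named with its values known, in the animal sum (adjusted p = 0.0335), where edgeR gave a log2 fold change of 1.65 (95% interval 0.7 to 2.7, adjusted p = 0.170). Gm15964 (ENSMUSG00000085337, chr16:91611468-91623861, plus strand) shares 1014 of 2745 exonic bases with Gart, a purine synthesis enzyme gene. Its wt HIP level was 0.354, 0.351, 0.363, 0.387 and 0.345 CPM and its Ts66Yah HIP level 0.489 to 0.697 CPM, median 0.567, without overlap between genotypes. The log2 fold change was 0.69 in the HIP (95% interval 0.30 to 1.09, adjusted p = 0.140) and 0.35 in the EC (-0.45 to 1.15, adjusted p = 0.972). Gart rose by 0.59 in the HIP and 0.58 in the EC. 4930404I05Rik (ENSMUSG00000087354, chr16:91011249-91016743, plus strand) shares 1142 of 2746 exonic bases with Paxbp1, and its start lies 59 bases from that of Synj1, the gene of a synaptic phosphoinositide phosphatase. Its log2 fold changes were 0.42 in the HIP (-0.05 to 0.90, adjusted p = 0.482) and 0.80 in the EC (0.24 to 1.38, adjusted p = 0.548).

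2310043M15Rik (ENSMUSG00000097768, chr16:93792136-93794901, minus strand), which shares 443 of 1580 exonic bases with Dop1b, stood at 0.62 on the log2 scale in the HIP (95% interval -0.19 to 1.45, adjusted p = 0.557) and was too low in the EC. Gm49727 (ENSMUSG00000116836, chr16:90925532-90928110, plus strand), a TEC entry, shares 703 of 2579 exonic bases with the cilia gene Cfap298. Its log2 fold change was 0.45 in the HIP (-0.03 to 0.94, adjusted p = 0.466) and 0.23 in the EC (-0.16 to 0.62, adjusted p = 0.939). Cfap298 did not pass the test in either region, at 0.02 in the HIP (-0.45 to 0.50) and 0.67 in the EC (0.04 to 1.3, adjusted p = 0.772).

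Across pairs, a noncoding gene and its coding partner were set side by side, the partner being the overlapped gene or otherwise the one with the nearest start. Both genes were tested in 21 pairs in the animal sum. The noncoding gene had the larger log2 fold change in 10 and the smaller in 10, and the median difference was 0.00. In the HIP it was larger in 7 and smaller in 6 of 14 pairs, with a median difference of 0.03, and in the EC larger in 5 and smaller in 6 of 11 pairs, with a median difference of -0.14. The partners' own median was 0.59 in the animal sum. Genes with exon bases shared on the opposite strand had a median of 0.62 in the HIP (7 genes), against 0.01 for those overlapping no coding gene (7 genes), and 0.71 (5 genes) against 0.36 (7 genes) in the EC. In the animal sum the order was the other way, 0.57 (8 genes) against 0.74 (11 genes). The classes hold few genes, and the difference between them was not tested.

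**Figure D4:**
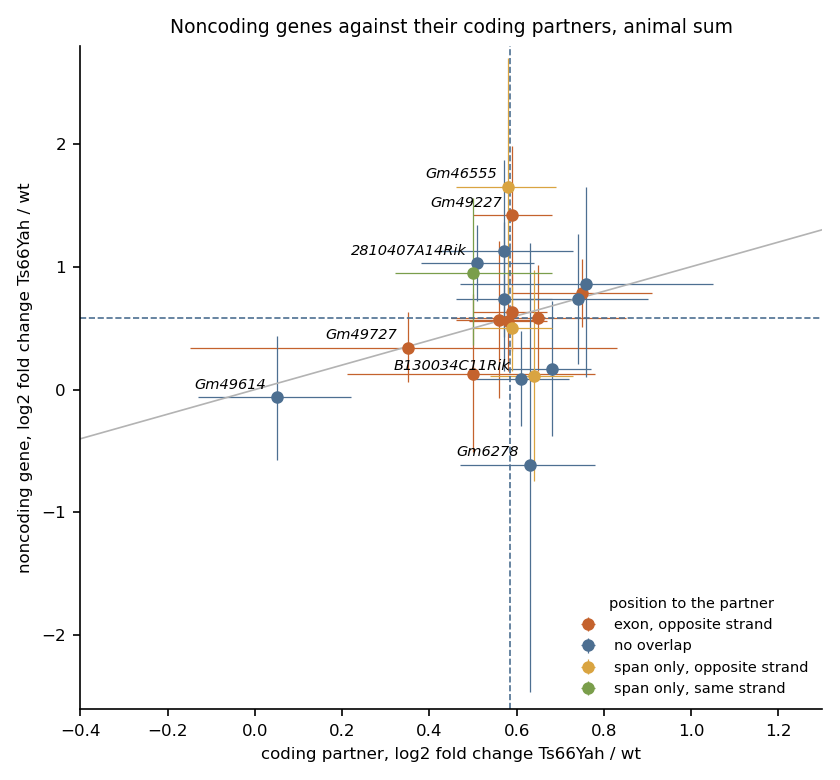
Log2 fold change of a noncoding gene in the animal sum (y axis) against that of its coding partner (x axis), each point 1 of 21 pairs with its 95% intervals and coloured by position. The grey line is equal change and the dashed lines a copy ratio of 1.5. Points fall on both sides of the grey line, 10 above and 10 below, and the partners lie in a narrower range than the noncoding genes.

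Among the pairs, Gm49614 (ENSMUSG00000116882, chr16:91222100-91222926, minus strand), a TEC entry picked with its values known, lies nearest to Olig2, the gene of an oligodendrocyte lineage transcription factor. Both were close to no change in the animal sum, with log2 fold changes of -0.06 (95% interval -0.57 to 0.44) and 0.05 (-0.13 to 0.22). Olig2 departed from 1.5-fold (adjusted p = 0.00117), and Gm49614 did not pass that test (adjusted p = 0.154).

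Among other intergenic RNAs, Gm36001 (ENSMUSG00000116753, chr16:90548633-90550609, minus strand), a lincRNA nearest to the kinase gene Hunk, had the largest difference between regions in its genotype effect among the 19 genes tested for it. In the HIP it was at 0.248, 0.351, 0.383, 0.426 and 0.259 CPM in wt and from 0.486 to 1.53 CPM, median 0.630, in Ts66Yah, without overlap. In the EC it was at 0.387, 0.264, 0.187, 0.418 and 0.428 CPM in wt and from 0.165 to 0.534 CPM, median 0.320, in Ts66Yah, with the genotypes overlapping. On the log2 scale the fold change was 1.19 in the HIP (95% interval 0.51 to 1.90, adjusted p = 0.148, and 0.0464 by DESeq2) and 0.04 in the EC (-0.65 to 0.73, adjusted p = 0.997). Their difference, -1.16 ± 0.46 (SE), had an unadjusted p of 0.0196 by edgeR and did not pass after adjustment. This fit had no term for the animal, so the HIP and EC libraries of an animal entered it as independent. None of the 19 was called by edgeR or by DESeq2, and 0% of all 19074 genes were called. At an unadjusted p under 0.05 by edgeR stood 1 of the 19, beside 388 of the 19074.

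Gm49714 (ENSMUSG00000116830, chr16:90596773-90602619, plus strand) is a lincRNA whose nearest coding start, that of the centromere gene Mis18a, lies 130631 bases away. It had the largest log2 fold change of the 3 lincRNAs tested in the EC. Its level there was 0.0893, 0.264, 0.117, 0.119 and 0.143 CPM in wt and 0.153 to 0.508 CPM, median 0.401, in Ts66Yah, with overlap at wt replicate 2. Its log2 fold change was 1.32 (95% interval 0.53 to 2.18, adjusted p = 0.376). A930006K02Rik (ENSMUSG00000084866, chr16:91465025-91470128, plus strand) is a processed transcript whose nearest coding start is that of the interferon receptor gene Ifnar1. Its log2 fold change was 0.01 in the HIP (-0.75 to 0.77) and 0.36 in the EC (-0.29 to 1.01). Both intervals held no change and a copy ratio of 1.5, while Ifnar1 rose by 0.68 in both regions.

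Of the 29 processed pseudogenes, 21 had a stretch of 50 or more bases at least 90% identical to a coding gene, and for 11 that gene encodes a ribosomal protein. In 5 of the 29 over 50% of the bases were 98% or more identical to another locus, which 50-base reads may not separate. Gm46546 (ENSMUSG00000116845, chr16:88459945-88460193, plus strand), whose 249 bases are 92.4% identical to the ribosomal protein gene Rps21, was the gene of the 113 that departed from 1.5-fold in the animal sum. Its summed level was 0.501, 0.295, 0.549, 0.374 and 0.387 CPM in wt and 0.165 to 0.374 CPM, median 0.282, in Ts66Yah, with overlap. The log2 fold change was -0.62 (95% interval -1.15 to -0.09, adjusted p = 0.408), and the departure from 1.5-fold had adjusted p = 0.00982, which stayed between 0.00688 and 0.0374 without any 1 animal. The HIP and EC gave -0.63 (-1.43 to 0.14) and -0.59 (-1.25 to 0.06), with departures at adjusted p = 0.0699 and 0.0701. Rps21, which lies outside the segment and was at 123 ± 19.3 CPM in wt, had a log2 fold change of -0.18 (adjusted p = 0.507). Whether reads of Rps21 enter the counts of Gm46546 was not tested.

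Gm6278 (ENSMUSG00000116972, chr16:85644252-85645023, plus strand) is 96.4% identical to the ribosomal protein gene Rplp0 over 670 bases. Its counts ranged widely between animals of either genotype. The wt animals had HIP counts of 15, 13, 36, 6 and 1 beside EC counts of 17, 6, 25, 9 and 1. The Ts66Yah animals had HIP counts of 23, 0, 20, 1, 5 and 1 beside EC counts of 21, 0, 18, 0, 8 and 0. In both genotypes the animals with 15 or more counts in the HIP had 17 or more in the EC, and those with 0 or 1 in the HIP had 0 or 1 in the EC. The log2 fold change of the animal sum was -0.61, with an interval from -2.46 to 1.19. Rplp0 was at 65.1 ± 23.2 CPM in wt and 70.5 ± 24.4 CPM in Ts66Yah in the animal sum. Its lowest values were in wt animals 1 and 3, at 39.2 and 48.2 CPM, and in Ts66Yah animals 1 and 3, at 38.3 and 41.2 CPM, the same 4 animals that had 15 or more counts of Gm6278 in the HIP, while the others had 66.8 to 98.9 CPM. Whether reads of Rplp0 enter the counts of Gm6278 was not tested.

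**Figure D5:**
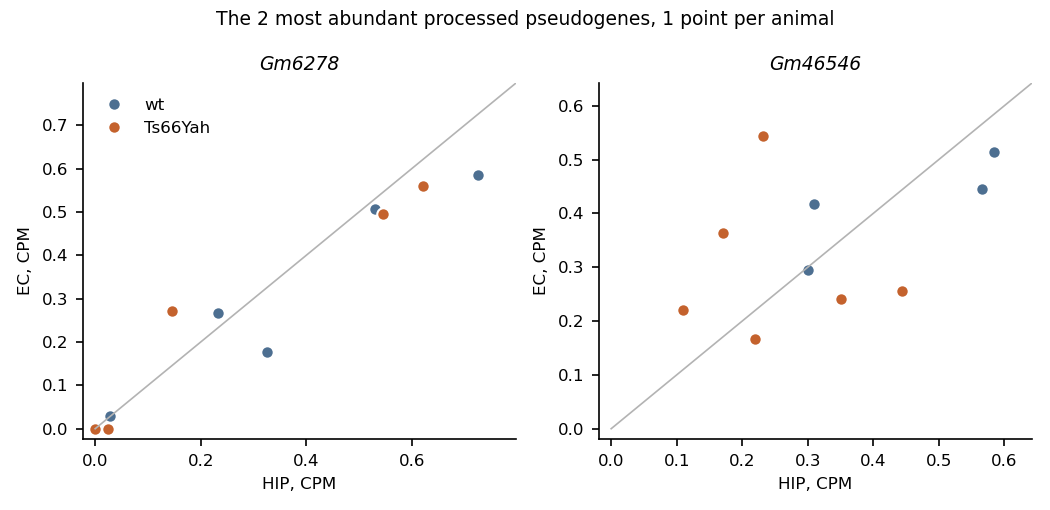
Level of the processed pseudogenes Gm6278 and Gm46546 in the EC (CPM, y axis) against that in the HIP of the same animal (CPM, x axis), with 1 point per animal, 5 wt and 6 Ts66Yah, and the line of equal level. For Gm6278 the animals at 0 or 1 counts in the HIP lie at 0 or 1 in the EC, and both genotypes reach over 0.5 CPM.

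Mx2 (ENSMUSG00000023341, chr16:97535308-97560900, plus strand), an interferon-induced antiviral GTPase gene annotated as a polymorphic pseudogene because laboratory strains differ in its reading frame, is 94.8% identical to its neighbour Mx1 over 921 bases. Its level was 0.566, 0.652, 0.464, 0.813 and 0.603 CPM in the wt HIP and 0.676 to 1.42 CPM, median 0.982, in the Ts66Yah HIP. In the EC it was 0.238, 0.529, 0.351, 0.477 and 0.457 CPM in wt and 0.231 to 3.70 CPM, median 0.731, in Ts66Yah. The genotypes overlapped in both regions, and the value of 3.70 CPM in the EC of Ts66Yah replicate 4 stood apart from the others, the next being 1.1. On the log2 scale the fold change was 0.71 in the HIP (95% interval 0.24 to 1.19, adjusted p = 0.220) and 1.57 in the EC (0.36 to 2.8, adjusted p = 0.646), and both intervals held a copy ratio of 1.5. Without Ts66Yah replicate 4 the value in the EC was 0.78 (adjusted p = 0.779). In the EC of that replicate Mx1 was at 2.22 CPM, against 0.0679 to 0.413 CPM in the other Ts66Yah EC libraries. Whether reads of Mx1 enter the counts of Mx2 was not tested.

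In wt animals the 2 regions were also compared, which answers where these genes are expressed at the usual copy number. Of 13 genes tested, 4 were lower in the EC than in the HIP, beside 24.3% of 17935 genes called lower, and none was higher by edgeR or by DESeq2, nor at an unadjusted p under 0.05 by edgeR. The median log2 difference was -0.43, against 0.01 for all genes. The 4 were Gm10791 at -1.40 (95% interval -1.97 to -0.84, adjusted p = 0.000710), Gm10785 at -1.24 (-1.74 to -0.74, adjusted p = 0.000760), 4930404I05Rik at -1.05 (-1.61 to -0.51, adjusted p = 0.00429) and Gm41505 at -1.01 (-1.42 to -0.61, adjusted p = 0.000733). Every wt EC library lay below every wt HIP library for each of them, and the 4 calls stood without any 1 animal. The shares of all genes separated in this way, or called higher in the EC, are not given here. This edgeR fit had no term for the animal either. With the animal as a block the adjusted p was 0.000826, 0.000798, 0.00295 and 0.000230, in the order above.

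Their partners did not all differ in this way. Kcnj6 and Paxbp1 were lower in the EC, at -0.86 and -1.05, like Gm41505 and 4930404I05Rik. App was higher in the EC, at 0.28 (adjusted p = 0.00131), and Cryzl1 at 0.07 (adjusted p = 0.317) did not pass the test, while Gm10791 and Gm10785 were lower. 2810407A14Rik was at a like level in both regions, with a log2 difference of 0.13 (95% interval -0.33 to 0.58, adjusted p = 0.655).

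The small RNA genes were at the floor of the assay, whose fragments are longer than a mature microRNA. Of the 10 microRNA genes annotated in the segment 3 had a count, Mir6964 (chr16:97877233-97877291, minus strand) with 14 over all 22 libraries, Gm22933 with 10 and Gm22745 with 1. The snRNA genes Gm25245 and Gm23692 had 4 counts each, and the snoRNA genes Gm26153 and Gm25896 had 3 and 1. Mir6964, Gm25245, Gm23692 and Gm25896 lie on the same strand within the spans of C2cd2, Atp5o, Ttc3 and Ltn1, in that order. How far reads of these coding genes enter the counts was not tested. Mir155, a microRNA of immune cells with which the list begins, and Mir802 had 0 counts. The RefSeq mature sequences of Mir6964, the microRNA gene of the segment with the most counts, and of Mir155, the first of the list, follow with the seed, bases 2 to 8, in capitals. No seed was shared among them.
mmu-miR-6964-3p: uUUCUUGUcuuccacucuag
mmu-miR-6964-5p: uUGGGGUGugagacuggaaac
mmu-miR-155-5p: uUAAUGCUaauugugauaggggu
mmu-miR-155-3p: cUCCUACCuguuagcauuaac

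Reads assigned to these genes cannot be read as levels of the mature microRNA. Between 53 and 69 of the 113 genes had a count in a HIP library and between 45 and 61 in an EC library. Of those seen in 1 genotype alone, 13 were seen in Ts66Yah, which had 1 animal more, and 5 in wt. Each of these had at most 4 counts over all libraries, and the matching share among all genes was not taken.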

How the data were processed

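RNA of the HIP and EC was sequenced by the authors as 50-base single-end reads, aligned with Hisat2 to GRCm38 and counted per Ensembl gene with HTSeq-count. The deposited table holds raw read counts, not normalised. The labels name a poly(A) kit and the study's methods a ribosomal depletion kit, and tool versions, the strand setting and the treatment of reads with several locations are not given in the sources used here.

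Biotypes and positions came from GENCODE vM21 by Ensembl ID, which matched 55144 of 55385 rows. Counts were fitted with edgeR 4.0.16 in R 4.3.3 (TMM, filterByExpr, quasi-likelihood test) over all genes, per region, on HIP and EC counts added per animal, for the genotype by region interaction, and for EC against HIP in wt. Benjamini-Hochberg adjustment ran over all genes tested, with a threshold of 0.05. Departure from 1.5-fold was tested by shifting the offsets of Ts66Yah libraries and adjusted over the tested segment genes. Intervals of 95% invert the F test. DESeq2 1.42.0 and other settings were alternatives, and the steps were tested on simulated data. A copy is a stretch of 50 or more bases found by blastn. Total counts of 25900479 to 50105778 per library set the precision.

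The genes and lists were chosen with earlier results of these data known. Named were 2810407A14Rik, Gm49227 and B130034C11Rik, genes past a genotype, dosage or interaction test, the 15 highest by mean CPM, the 3 largest fold changes per region, the 3 largest called differences per direction between wt regions, all microRNA, snoRNA and snRNA genes, and the coding partners. The HIP and EC libraries that carry the same animal number in the labels deviated together (correlation 0.201 to 0.487). Group membership follows the labels. Each animal counts once per test of genotype, except in fits of all 22 libraries, which took those of an animal as independent.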

Additional observations from a re-analysis of the deposited data

Results flagged for a closer look

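In each region, the 6 Ts66Yah and the 5 wt libraries of every tested noncoding gene were searched for a library far from the others of its group by Dixon's criterion. The criterion flags about 1 in 20 independent groups of normally distributed values, a rate that low counts from the same libraries need not follow. Here 6 of 58 groups were flagged, all of Ts66Yah. In the HIP, Gm36001 was at 1.53 CPM in replicate 3 against 0.486 to 0.782 CPM in the others, and 4930404I05Rik was at 1.75 CPM in replicate 4 against 0.850 to 1.13 CPM. 2310043M15Rik was at 1.16 CPM in replicate 5 against 0.306 to 0.567 CPM, and Gm10785 was at 1.43 CPM in replicate 2, below the 2.00 to 2.22 CPM of the others. In the EC of replicate 4, Gm15964 was at 0.715 CPM against 0.220 to 0.368 CPM, and Mx2 was at 3.70 CPM against 0.231 to 1.1 CPM.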

How the results depend on the processing

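Of the 3 genes called in the HIP, 0 were called with the replicate block (the replicate number of the labels), 1 when the block was the range in which an animal's number fell, 2 with all 22 libraries in one fit, which lost Gm49227 (adjusted p = 0.0970), 4 with DESeq2, which added Gm36001, and 1 to 2 without any 1 library. In the EC, where 1 was called, the count was 0 with the replicate block, 2 with DESeq2, which added Gm41505, 2 with all 22 libraries in one fit, which added Gm10785, and 1 to 1 without any 1 library. In the animal sum 3 were called. The count was 1 with the replicate block and 6 with DESeq2, which added Gm10785, Gm46555 and Mx2. It was 2 with the number range as a block, which lost Gm49227 (adjusted p = 0.112), and 2 to 3 without any 1 animal. All fits with the number range as a block left out wt animal 1, whose number lay in neither range. Leaving out wt animal 1 alone also lost Gm49227 in the animal sum. Deviations of same-numbered wt and Ts66Yah animals correlated at -0.009 to 0.061 in the HIP and 0.019 to 0.194 in the EC. In the sum the correlation was -0.016 to 0.108. Whether these animals shared more than a number was not tested. Departures from 1.5-fold in the HIP, 2 as reported, were 0 without a filter on low counts, 1 with a minimum of 1 CPM in 5 or more libraries, which leaves Gm49227 untested, 0 with the replicate block and 0 to 2 without any 1 library. The EC gave 0 to 1 without any 1 library. The animal sum, 1 as reported, gave 0 with the CPM minimum, which leaves Gm46546 untested, 0 with the replicate block, an adjusted p of 0.0665 for Gm46546 with the number range as a block, and 1 to 2 without any 1 animal. The 4 region calls stayed at 4 to 4 without any 1 animal.

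The median log2 fold change in the HIP was 0.48 without a filter, 0.48 with the CPM minimum, 0.65 for lncRNA biotypes alone, 0.48 without genes that share exon bases with a coding gene, and 0.44 to 0.70 without any 1 library. In the EC it was 0.72 with the CPM minimum and 0.33 to 0.70 without any 1 library. In the animal sum it was 0.63 with the CPM minimum, 0.68 for lncRNA biotypes, 0.74 without shared exon bases and 0.45 to 0.69 without any 1 animal. Without any 1 library the sign changed for A930006K02Rik in the HIP (-0.11 to 0.35), B130034C11Rik in the HIP (-0.16 to 0.00) and the sum (-0.01 to 0.18), Gm36001 in the EC (-0.14 to 0.17) and between wt regions (-0.11 to 0.31), and Gm46546 between wt regions (-0.01 to 0.37). The cause of these changes was not tested. Under the other settings single genes kept direction and side of the threshold in 303 values, passed it in 5 and lost it in 10. Depth limited most of the 113 genes, of which 90 were tested in no comparison.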

Other observations

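A pair of noncoding genes, chosen after their values were seen, were counted almost only in the HIP. 2410124H12Rik lies in the span of Clic6 and had between 1 and 9 counts in each HIP library and 0 or 1 in each EC library. Gm29880, nearest to the potassium channel subunit gene Kcne2, had 0 to 9 counts in HIP libraries and 0 or 1 in EC libraries. Clic6 and Kcne2 are known in the choroid plexus, and the summed choroid plexus markers were 114 to 3320 CPM in HIP libraries and 10.5 to 44.3 CPM in EC libraries, with Kcne2 itself at 0.264 to 22.3 CPM and at 0.0240 to 0.182 CPM. In wt HIP replicate 4, the library with the lowest choroid plexus sum, 2410124H12Rik had 6 counts and Gm29880 had 0. The part of choroid plexus tissue in these counts was not tested.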
